A study of Homo sapiens with 23 samples.

Results

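The ERK feedback genes are 10 genes whose products act back on the RAS to ERK signalling pathway: the dual-specificity phosphatases DUSP1, DUSP2, DUSP4, DUSP5, DUSP6 and DUSP10, the Sprouty genes SPRY1 and SPRY2, and SPRED1 and SPRED2. They were chosen by name, with earlier results of these data known, and found by an exact match of the symbol in the deposited count table. All 10 were among its 28395 genes, and all 10 passed the filter on low counts that left 16468 genes for testing.

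H929, MM1S, OPM2 and RPMI-8226, the 4 lines sequenced, are human cultures of malignant plasma cells from multiple myeloma. Each line carried a doxycycline-induced guide RNA, either against IRF4 or the guide called EV in the labels, and both kinds of culture received doxycycline for 48 hours. Cas9 stands in the deposited names of the libraries of both guides, so the EV group is the control that shares line, nuclease name and doxycycline with the IRF4 group. There were 23 libraries, 3 per line and guide except the MM1S EV group with 2 (replicates 2 and 3); the sources used here do not give the guide sequences, what EV stands for or whether the cells were clones or pools. The labels did not say that replicates were separate cultures, so p-values measure the spread between these libraries, which may be technical.

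As background, growth factor receptors such as FGFR3 load RAS with GTP, RAS recruits RAF kinases, and RAF, MEK and ERK are activated in turn. ERK then switches on genes that limit the same pathway: dual-specificity phosphatases remove the activating phosphates from ERK, p38 or JNK, Sprouty proteins act between receptor and RAF, and SPRED proteins bring the RAS GTPase activator neurofibromin to the membrane. Levels of these transcripts, DUSP6 and SPRY2 among them, are often read as a sign of how much signal ERK carries, which these RNA data did not measure directly. RAS pathway mutations are common in myeloma: H929 has an activating NRAS mutation and OPM2 an activating FGFR3 mutation, while H929 and OPM2 both have the translocation that places FGFR3 under immunoglobulin enhancers. IRF4 is a transcription factor on which plasma cells and myeloma cells depend.

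Library totals ran from 6907390 to 28486960 counts. Levels below are CPM, that is, counts per library total with TMM scaling, and group levels are mean ± SD over libraries. IRF4, the targeted gene, was measured at 2181, 2219 and 2196 CPM with the EV guide and 579, 773 and 855 CPM with the IRF4 guide in H929. The MM1S libraries had 724 and 641 CPM with the EV guide and 279, 287 and 228 CPM with the IRF4 guide, those of OPM2 1569.7, 2031 and 1319 CPM with the EV guide and 890.2, 1331 and 897 CPM with the IRF4 guide, and those of RPMI-8226 482, 461 and 409 CPM with the EV guide and 193, 250.1 and 187 CPM with the IRF4 guide. IRF4 RNA was lower with its guide in all 4 lines, with log2 differences (± SE) of -1.58 ± 0.18, -1.37 ± 0.20, -0.66 ± 0.18 and -1.10 ± 0.18 in H929, MM1S, OPM2 and RPMI-8226. The smallest fall was in OPM2, where 1 IRF4-guide library overlapped the EV libraries. RNA level does not show how much protein remained.

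All 8 plasma cell markers were detected, with summed levels of 1434 to 7112 CPM in EV libraries and 1182 to 5167 CPM in IRF4-guide libraries. Markers of other cells were summed in the same way. The 6 T and NK cell markers came to 0 to 15.7 CPM with the EV guide and 1.91 to 126 CPM with the IRF4 guide, most of it CD3E in H929 (14.1 ± 0.985 against 107 ± 10.8 CPM), while CD3D had 0.744 ± 0.453 CPM in the latter group and 0 in the former. The 5 myeloid markers ran from 0.119 to 3.29 CPM and from 0.623 to 16.2 CPM, of which ITGAM was 9.65 ± 2.81 CPM in MM1S and 9.30 ± 4.18 CPM in RPMI-8226 with the IRF4 guide. The 4 epithelial markers reached 129.8 CPM through EPCAM in RPMI-8226 (116 ± 9.02 CPM with EV and 83.1 ± 9.13 CPM with the IRF4 guide), and the 5 stromal and 4 erythroid and platelet markers stayed at or under 4.17 CPM in sum, with 1 marker of each at 0 in all libraries. The part of these levels in the results below was not tested. In bulk RNA, fewer cells that express a gene and less of its RNA per cell cannot be told apart.

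With the IRF4 guide, more ERK feedback genes rose than fell in H929, MM1S and OPM2, while equal numbers rose and fell in RPMI-8226. Calls were made at adjusted p values under 0.05 (edgeR quasi-likelihood test, Benjamini-Hochberg over all genes tested), and "rose" and "fell" below refer to such calls. In H929, 6 of the 10 rose and 1 fell, against 32.9% higher and 26.1% lower over all genes tested. In MM1S, 4 rose and 1 fell (all genes, 19.4% and 15.2%). In OPM2, 5 rose and 1 fell (all genes, 23.3% and 20.2%), and in RPMI-8226 3 rose and 3 fell (all genes, 19.2% and 14.7%). On the average of the 4 lines, 6 rose and 2 fell, with 32.6% and 25.1% of all genes called. The median log2 difference of the 10 genes was 0.50, 0.28, 0.29 and -0.00020 across H929, MM1S, OPM2 and RPMI-8226, beside 0.10, 0.07, 0.03 and 0.04 for all genes tested. The share of members called higher was above that of all genes in each line on counts. The members were chosen with earlier results of these data known, and whether the higher share is particular to them was not tested. In RPMI-8226 the share called lower was also above that of all genes. Of the 3 rises there, that of DUSP10 (adjusted p = 0.0492) ended in 17 of 23 fits that each left out 1 library.

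Only DUSP10 rose and only DUSP2 fell in all 4 lines among the 10, where 5.14% of all genes tested rose and 3.83% fell in every line. The size of the change differed between lines for 7 of the 10 genes by an F test of the difference itself, a call that 48% of all genes received. The plot of log2 differences by gene and line shows these 2 genes on either side of 0 and the wide scatter of SPRY1 and SPRY2. Without MM1S EV replicate 2, a group of 2 libraries, the MM1S count fell from 5 to 3. On the deposited log2 RPKM values, tested with limma, the OPM2 count fell from 6 to 3 (DUSP5, DUSP10 and SPRED1). Over all genes, 7156 of 16468 were called in OPM2 on counts and 6181 of 16220 on log2 RPKM. That scale moved the median of all genes by -0.17, -0.09, -0.11 and -0.07 (log2; H929, MM1S, OPM2, RPMI-8226). Of all genes called on the average of the lines, 56.5% were higher on counts and 46.2% on log2 RPKM. The members' differences below are those on counts, and the small ones are of the size of that shift.

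**Figure D1:**
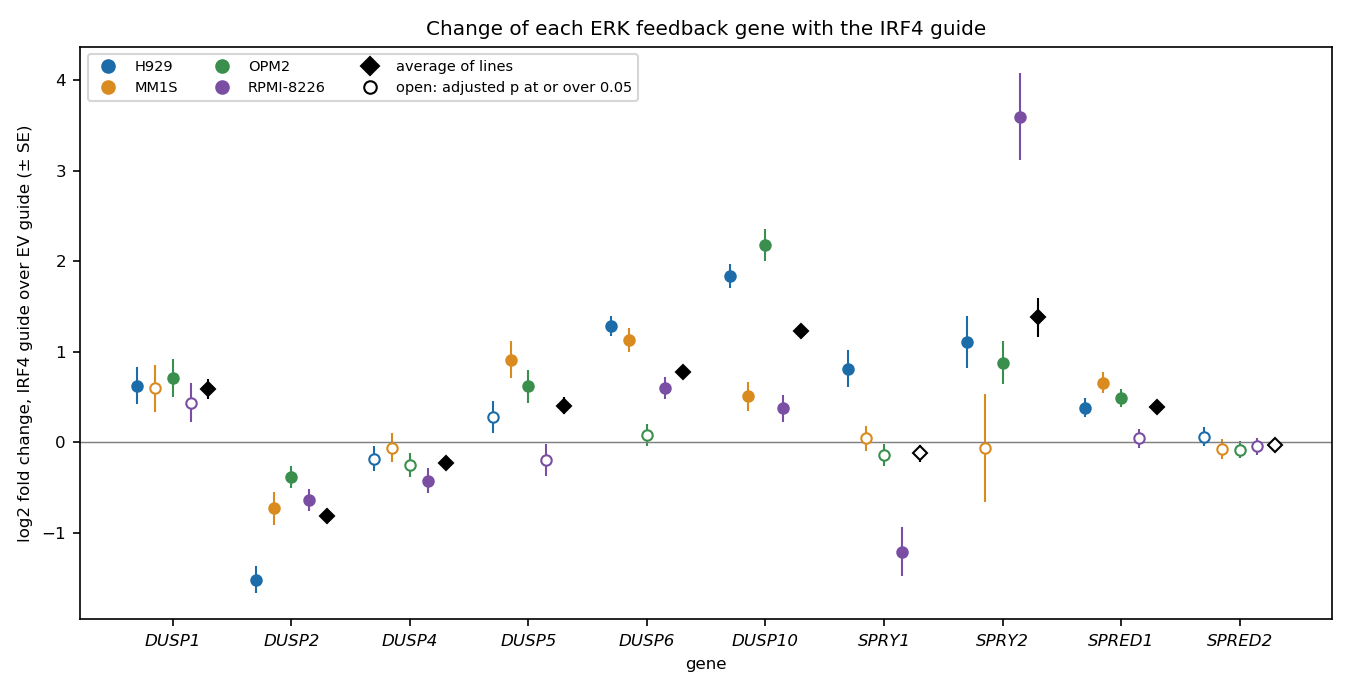
Log2 difference (IRF4 guide over EV guide, ± SE) of each ERK feedback gene, with 1 colour per line, diamonds for the average of the 4 lines, and open symbols where the adjusted p was 0.05 or more. DUSP2 lies below 0 and DUSP10 above 0 in every line, and SPRY2 spans -0.06 in MM1S to 3.60 in RPMI-8226.

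DUSP6 encodes a cytoplasmic phosphatase selective for ERK and lies at chr12:89347235-89352501 (GRCh38). In H929 its libraries had 241, 228 and 264 CPM with the EV guide and 618, 553 and 619 CPM with the IRF4 guide. MM1S gave 128 and 139.9 CPM with the EV guide and 267, 305 and 307 CPM with the IRF4 guide. The guide groups did not overlap in either line, and DUSP6 rose by 1.29 ± 0.11 (adjusted p = 1.54e-10) in H929 and 1.13 ± 0.13 (adjusted p = 1.75e-07) in MM1S on the log2 scale, or 2.44-fold and 2.19-fold. In RPMI-8226 it had 34.6, 36.1 and 35.4 CPM with the EV guide and 55.4, 44.5 and 61.1 CPM with the IRF4 guide, again without overlap, and rose by 0.60 ± 0.12 (adjusted p = 0.000303). OPM2 stood apart: 32.9, 45.5 and 37.3 CPM with the EV guide and 39.4, 47.4 and 33.96 CPM with the IRF4 guide, overlapping groups with a log2 difference of 0.08 ± 0.12 (adjusted p = 0.634). The difference between lines passed the F test (adjusted p = 3.53e-06), and no alternative setting or left-out library ended the calls in H929, MM1S and RPMI-8226.

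DUSP5 encodes a nuclear phosphatase specific for ERK and lies at chr10:110497907-110511533. MM1S libraries had 227 and 231 CPM with the EV guide and 387, 459.7 and 450.2 CPM with the IRF4 guide, well apart, and DUSP5 rose there by 0.91 ± 0.21 (adjusted p = 0.00212). OPM2 had 50.5, 87.9 and 57.7 CPM with the EV guide and 80.2, 122 and 93.9 CPM with the IRF4 guide, where replicate 2 was the highest with either guide and the groups overlapped. DUSP5 rose in OPM2 by 0.62 ± 0.19 (adjusted p = 0.0122). This call ended without EV replicate 1 (0.46, adjusted p = 0.0751), EV replicate 3 (0.54, adjusted p = 0.0581) or IRF4 replicate 2 (0.44, adjusted p = 0.0700), and when OPM2 was fitted alone (0.61, adjusted p = 0.144). Same-numbered libraries of both guides varied together in OPM2, and each IRF4-guide library was above the EV library of its number. With a replicate block within each line the OPM2 call held. H929, the line with the most DUSP5, had 728, 787 and 849 CPM with the EV guide and 884, 958 and 1027 CPM with the IRF4 guide. These groups did not overlap, yet the log2 difference of 0.28 ± 0.18 (adjusted p = 0.189) was not called in the joint fit. It was called when H929 was fitted alone (0.21, adjusted p = 0.0357) and without the low-count filter (0.28, adjusted p = 0.00292). With a replicate block within each line it was also called (0.28, adjusted p = 0.000113), each IRF4-guide library being above the EV library of its number. In RPMI-8226 the value was -0.20 ± 0.18 (adjusted p = 0.441) with overlapping groups, and was called lower only with the block within each line (-0.21, adjusted p = 0.00563). The F test gave an adjusted p of 0.0119 for the difference between lines.

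DUSP4 encodes a nuclear phosphatase of ERK, JNK and p38 that growth factors induce. Its log2 differences were -0.18 ± 0.14 in H929, -0.06 ± 0.16 in MM1S and -0.25 ± 0.14 in OPM2, none called in the fit without a block, with overlapping groups. In RPMI-8226, 122, 109.6 and 102 CPM with the EV guide and 101, 71.3 and 77.5 CPM with the IRF4 guide were measured, and DUSP4 fell by 0.42 ± 0.14 on the log2 scale (adjusted p = 0.0250). The gap between the groups was narrow, and the call ended without EV replicate 1, EV replicate 2, IRF4 replicate 2 or IRF4 replicate 3 of that line (adjusted p = 0.109, 0.0552, 0.118 and 0.102). In OPM2, where same-numbered libraries of the 2 guides varied together, every IRF4-guide library was below the EV library of its number (525, 732 and 515 CPM with the EV guide and 428, 593 and 466 CPM with the IRF4 guide, replicates 1 to 3), and with a replicate block within each line DUSP4 was called there (-0.25, adjusted p = 0.000989). It was also called in OPM2 without IRF4 replicate 2 (-0.40, adjusted p = 0.0217) or without the low-count filter (-0.22, adjusted p = 0.0441), and in H929 fitted alone (-0.25, adjusted p = 0.0161). Averaged over the 4 lines, DUSP4 had a log2 difference of -0.23 ± 0.07 (adjusted p = 0.00957), and a difference between lines was not called (adjusted p = 0.481).

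DUSP2 encodes an inducible nuclear phosphatase of lymphoid and myeloid cells and lies at chr2:96143169-96145440. It fell in all 4 lines, opposite to DUSP6 in 3 of them. H929 had 20.5, 19.9 and 15.5 CPM with the EV guide and 7.17, 6.52 and 5.71 CPM with the IRF4 guide, a fall by 1.52 ± 0.15 on the log2 scale (adjusted p = 4.60e-10). MM1S had 13.8 and 11.3 CPM with the EV guide and 7.87, 8.09 and 6.37 CPM with the IRF4 guide. OPM2 had 36.1, 41.7 and 37.6 CPM with the EV guide and 25.9, 34.2 and 28.2 CPM with the IRF4 guide. In RPMI-8226 the values were 34.4, 41.7 and 37.2 CPM with the EV guide and 22.9, 28.2 and 21.8 CPM with the IRF4 guide, and the guide groups overlapped in none of the lines. The log2 differences were -0.73 ± 0.18 (adjusted p = 0.00212) in MM1S, -0.38 ± 0.12 (adjusted p = 0.0139) in OPM2 and -0.64 ± 0.13 (adjusted p = 0.000218) in RPMI-8226. The sizes differed between lines (adjusted p = 0.000157), H929 having the largest of the 4. The MM1S call ended without EV replicate 2 (-0.59, adjusted p = 0.0682). The OPM2 call ended without EV replicate 2 (-0.31, adjusted p = 0.0725) or IRF4 replicate 1 (-0.30, adjusted p = 0.0949) and on log2 RPKM (-0.36, adjusted p = 0.0534). It held with a replicate block within each line.

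DUSP1 encodes a nuclear phosphatase of p38, JNK and ERK that stress and mitogens induce within minutes, and lies at chr5:172768096-172771195. Its H929 libraries had 22.7, 17.8 and 22.1 CPM with the EV guide and 38.1, 32.6 and 26.8 CPM with the IRF4 guide, and those of OPM2 14.97, 14.3 and 10.04 CPM with the EV guide and 23.2, 25.8 and 14.8 CPM with the IRF4 guide. DUSP1 rose by 0.62 ± 0.20 (adjusted p = 0.0117) in H929 and 0.71 ± 0.21 (adjusted p = 0.00904) in OPM2. MM1S had 16.7 and 12.05 CPM with the EV guide and 25.6, 23.1 and 15.1 CPM with the IRF4 guide, and RPMI-8226 12.6, 12.6 and 12.5 CPM with the EV guide and 18.7, 18.7 and 13.6 CPM with the IRF4 guide. These 2 lines gave log2 differences of 0.60 ± 0.26 (adjusted p = 0.0785) and 0.44 ± 0.21 (adjusted p = 0.120) that were not called. Replicate 3 was the lowest IRF4-guide library in each of the 4 lines, and in OPM2 and MM1S it fell inside the EV range. Same-numbered libraries of both guides varied together in OPM2, and each IRF4-guide library was above the EV library of its number. With a replicate block within each line the OPM2 call held. On the average DUSP1 rose by 0.59 ± 0.11 (adjusted p = 7.92e-05), and no difference between lines was called (adjusted p = 0.883). The H929 call ended without EV replicate 2 (0.51, adjusted p = 0.0557) or IRF4 replicate 1 (0.45, adjusted p = 0.0902), and the OPM2 call without EV replicate 3 (0.53, adjusted p = 0.0646) or on log2 RPKM (0.54, adjusted p = 0.0611). In MM1S the gene became called without IRF4 replicate 3 (0.76, adjusted p = 0.0195) and without OPM2 IRF4 replicate 3 (0.60, adjusted p = 0.0335). Fitted alone, both MM1S (0.53, adjusted p = 0.0388) and RPMI-8226 (0.41, adjusted p = 0.0329) were called, as they were without the low-count filter (0.59, adjusted p = 0.00216 and 0.42, adjusted p = 0.0100). The guide groups of RPMI-8226 did not overlap.

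DUSP10 encodes a phosphatase that prefers p38 and JNK over ERK and lies at chr1:221701424-221742089. It gave the largest called rise of the 6 phosphatases in both H929 and OPM2. H929 had 14.1, 13.5 and 14.3 CPM with the EV guide and 56.8, 45.9 and 46.9 CPM with the IRF4 guide. In OPM2, where the gene started lowest, 1.82, 1.90 and 1.72 CPM with the EV guide and 9.38, 7.43 and 7.60 CPM with the IRF4 guide were measured. The groups were far apart in both lines, with log2 differences of 1.84 ± 0.13 (adjusted p = 5.05e-13) and 2.18 ± 0.18 (adjusted p = 2.72e-11), or 3.57-fold and 4.54-fold. MM1S had 13.9 and 13.2 CPM with the EV guide and 18.7, 16.7 and 22.7 CPM with the IRF4 guide, a rise by 0.51 ± 0.16 (adjusted p = 0.0146) that was lost without EV replicate 2 (0.53, adjusted p = 0.0840), EV replicate 3 (0.45, adjusted p = 0.131) or IRF4 replicate 3 (0.40, adjusted p = 0.0689). In RPMI-8226 the groups overlapped, at 6.30, 5.32 and 7.68 CPM with the EV guide and 8.65, 8.48 and 7.16 CPM with the IRF4 guide. That rise, 0.37 ± 0.15 (adjusted p = 0.0492), stood at the threshold: it ended in 17 of 23 fits that each left out 1 library and in 5 of 7 other settings, with 0.21, adjusted p = 0.315 on log2 RPKM. The sizes differed between lines (adjusted p = 2.39e-08).

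**Figure D2:**
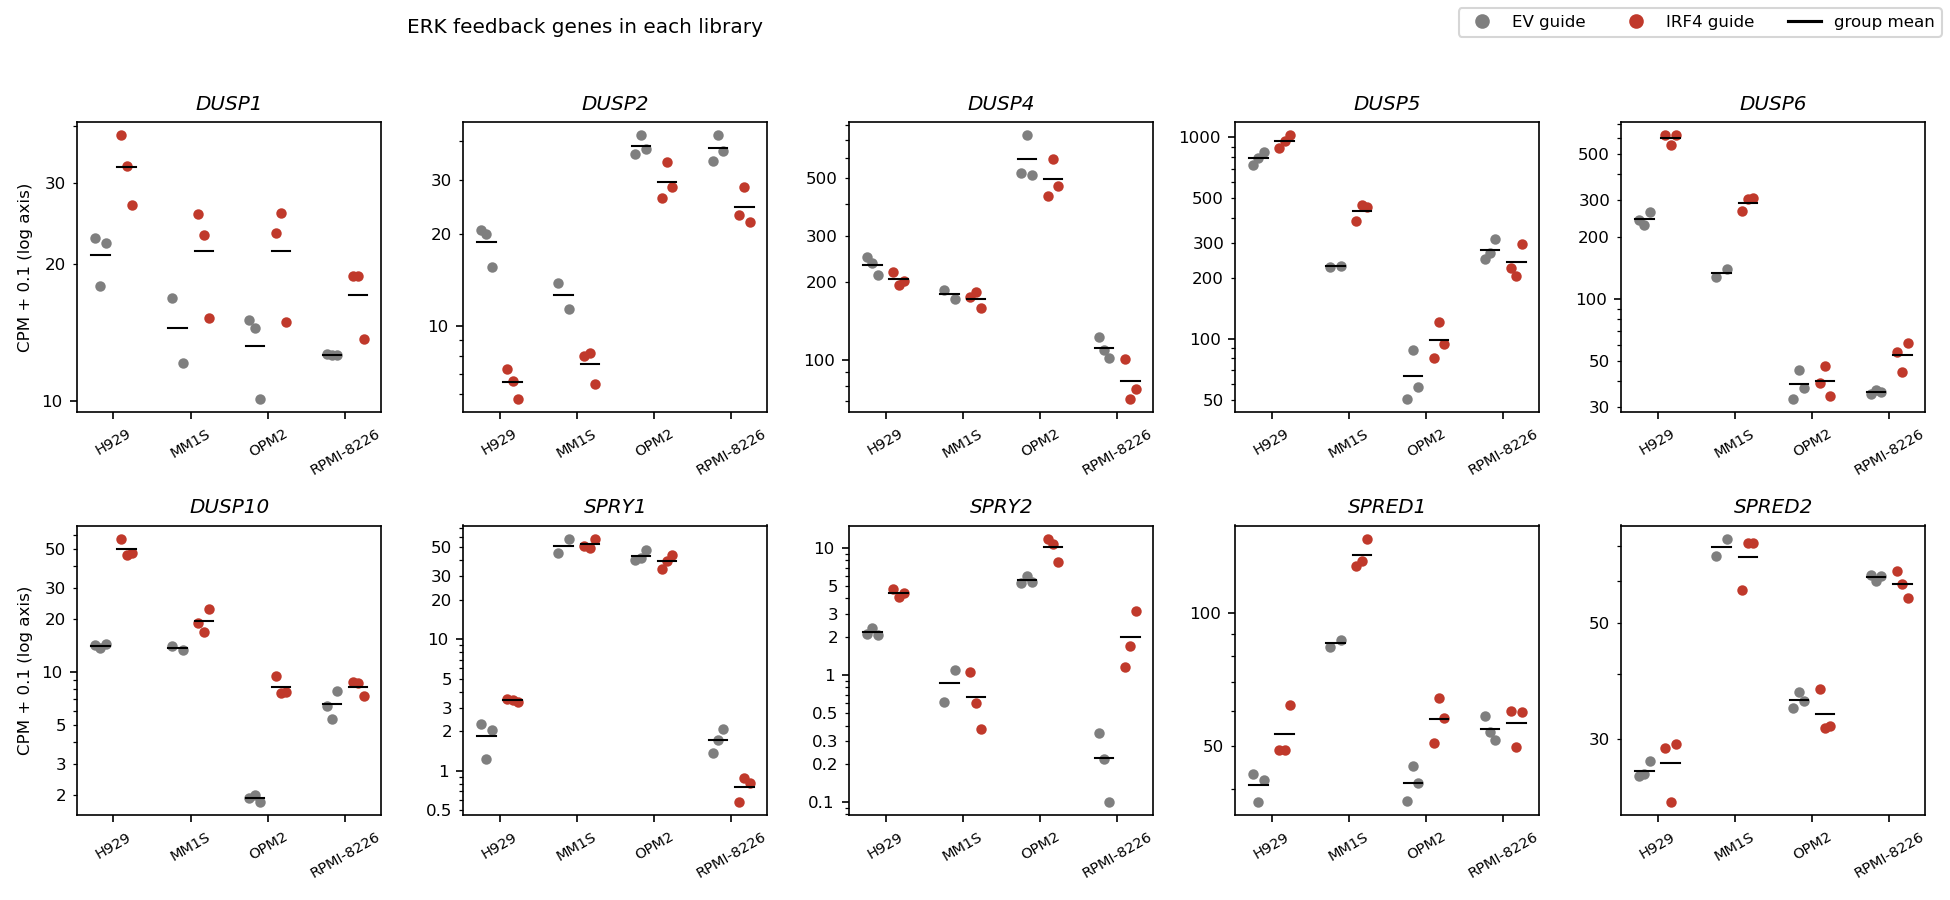
CPM + 0.1 of each ERK feedback gene in each library (log axis, scaled separately per gene), by line, with grey points for the EV guide, red points for the IRF4 guide and a black bar at the group mean. The 2 guides separate fully for DUSP2 in all 4 lines, and for DUSP6 in all lines but OPM2.

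SPRY2 encodes a Sprouty protein, an inhibitor acting between receptor tyrosine kinases and RAF, and lies at chr13:80335976-80341126. It was the least abundant member in RPMI-8226 with the EV guide, where the 3 libraries held 6, 3 and 0 counts (0.247, 0.117 and 0 CPM, a count of 0 allowing up to 0.329 CPM). With the IRF4 guide the same line held 22, 39 and 69 counts (1.05, 1.59 and 3.07 CPM). No IRF4-guide library overlapped the EV libraries, and SPRY2 rose by 3.60 ± 0.48 (adjusted p = 1.05e-06), 12.1-fold from a level near the detection limit. In H929 the levels were 1.996, 2.25 and 1.96 CPM with the EV guide and 4.64, 3.98 and 4.35 CPM with the IRF4 guide, and in OPM2 5.24, 5.93 and 5.29 CPM with the EV guide and 11.7, 10.6 and 7.68 CPM with the IRF4 guide. Both groups separated, with rises of 1.10 ± 0.29 (adjusted p = 0.00148) and 0.88 ± 0.24 (adjusted p = 0.00310). These 2 calls did not hold on log2 RPKM (0.59, adjusted p = 0.364 and 0.48, adjusted p = 0.506). MM1S held 2 to 27 counts per library, 0.510 and 1.004 CPM with the EV guide and 0.948, 0.506 and 0.277 CPM with the IRF4 guide, and a log2 difference of -0.06 ± 0.60 (adjusted p = 0.996), where the SE was wide. The difference between lines passed the F test (adjusted p = 0.000774).

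SPRY1, the second Sprouty gene (chr4:123396795-123403760), moved in opposite directions in the lines that express little of it. H929 had 2.16, 1.13 and 1.96 CPM with the EV guide and 3.40, 3.38 and 3.24 CPM with the IRF4 guide, and RPMI-8226 1.28, 1.60 and 1.97 CPM with the EV guide and 0.478, 0.775 and 0.712 CPM with the IRF4 guide. Neither line had overlapping groups: SPRY1 rose by 0.81 ± 0.21 (adjusted p = 0.00112) in H929 and fell by 1.21 ± 0.27 on the log2 scale (adjusted p = 0.000860) in RPMI-8226. The lines that express it well showed no call, with 44.9 and 57.2 CPM with the EV guide and 50.6, 49.7 and 58.1 CPM with the IRF4 guide in MM1S and 39.6, 41.1 and 47.6 CPM with the EV guide and 33.9, 39.1 and 43.7 CPM with the IRF4 guide in OPM2, and log2 differences of 0.04 ± 0.14 (adjusted p = 0.876) and -0.14 ± 0.12 (adjusted p = 0.371). The effects differed between lines (adjusted p = 0.000128), and on log2 RPKM the H929 value was 0.47 (adjusted p = 0.0922). The average over lines, -0.12 ± 0.10 (adjusted p = 0.297), was not called on counts but was on log2 RPKM (-0.30, adjusted p = 0.0330).

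SPRED1 encodes a membrane protein that binds neurofibromin and is the gene mutated in Legius syndrome, and lies at chr15:38252836-38357249. It had 43.2, 37.3 and 41.8 CPM with the EV guide and 48.9, 48.9 and 61.98 CPM with the IRF4 guide in H929, 83.99 and 87.1 CPM with the EV guide and 128, 131 and 148 CPM with the IRF4 guide in MM1S and 37.5, 44.9 and 41.2 CPM with the EV guide and 50.8, 64.2 and 57.8 CPM with the IRF4 guide in OPM2. In each of these 3 lines every IRF4-guide library was above every EV library. SPRED1 rose by 0.38 ± 0.11 (adjusted p = 0.00253), 0.66 ± 0.12 (adjusted p = 4.12e-05) and 0.49 ± 0.10 (adjusted p = 0.000278), and the H929 call ended without IRF4 replicate 3 (0.22, adjusted p = 0.0804). RPMI-8226 had 58.5, 53.8 and 51.7 CPM with the EV guide and 60.01, 49.8 and 59.6 CPM with the IRF4 guide, overlapping, with 0.04 ± 0.10 (adjusted p = 0.800). A difference between lines was called (adjusted p = 0.00751).

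SPRED2, its paralog at chr2:65307175-65432599, was the one member called in no line and not on the average. Group means ran from 26.1 ± 0.951 CPM with EV and 26.9 ± 3.66 CPM with the IRF4 guide in H929 to 69.6 ± 3.77 and 66.6 ± 7.77 CPM in MM1S, and the guide groups overlapped in all 4 lines. Log2 differences were 0.06 ± 0.10, -0.07 ± 0.11, -0.08 ± 0.10 and -0.04 ± 0.09 in H929, MM1S, OPM2 and RPMI-8226, so its errors were as narrow as those of SPRED1 and the values lay within about 1 SE of 0. On the average it was -0.03 ± 0.05 (adjusted p = 0.632).

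Sequence just upstream of the start sites was read from the RefSeq promoter table (GRCh38.p14), which held 13 windows, each 250 bases before to 50 after a start, for 8 of the 10 members; DUSP4 and DUSP5 had none. The 150 bases before a start are printed 5′ to 3′ on the gene's strand for the genes that moved in all 4 lines (DUSP10, DUSP2), for DUSP6, and for the genes with a searched motif upstream of the start, which is in capitals (DUSP1, SPRY1, SPRY2). Where a gene had several starts, 1 is shown. The stretches are chr1:221742090-221742239 (minus strand) for DUSP10, chr2:96145441-96145590 (minus) for DUSP2, chr12:89352502-89352651 (minus) for DUSP6, chr5:172771196-172771345 (minus) for DUSP1, chr4:123398236-123398385 (plus) for SPRY1 and chr13:80341127-80341276 (minus) for SPRY2.
DUSP10: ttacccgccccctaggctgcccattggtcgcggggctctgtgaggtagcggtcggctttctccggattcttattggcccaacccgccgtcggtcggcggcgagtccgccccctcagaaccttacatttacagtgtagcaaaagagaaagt
DUSP2: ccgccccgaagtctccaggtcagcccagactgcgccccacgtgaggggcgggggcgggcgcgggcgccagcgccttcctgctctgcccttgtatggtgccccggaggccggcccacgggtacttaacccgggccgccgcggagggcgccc
DUSP6: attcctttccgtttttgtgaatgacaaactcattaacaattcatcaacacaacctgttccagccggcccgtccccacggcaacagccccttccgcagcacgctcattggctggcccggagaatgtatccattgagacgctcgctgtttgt
DUSP1: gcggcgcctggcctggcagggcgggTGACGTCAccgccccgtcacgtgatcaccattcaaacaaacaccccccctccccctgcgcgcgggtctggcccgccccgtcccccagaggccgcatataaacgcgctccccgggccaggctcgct
SPRY1: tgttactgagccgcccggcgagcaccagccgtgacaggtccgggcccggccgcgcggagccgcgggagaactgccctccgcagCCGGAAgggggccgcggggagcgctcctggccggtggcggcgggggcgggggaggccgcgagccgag
SPRY2: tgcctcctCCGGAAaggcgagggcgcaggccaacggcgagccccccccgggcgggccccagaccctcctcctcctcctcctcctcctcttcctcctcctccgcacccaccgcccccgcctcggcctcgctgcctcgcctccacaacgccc

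Both strands were searched, and matches of different motifs did not overlap in these windows. The ETS core CCGGAA, the letters that ETS factors downstream of ERK recognise, was in 2 of the 13 windows (SPRY1 and SPRY2) and in 17.2% of all 35116 windows of that length. The cAMP response element TGACGTCA was in the DUSP1 window, 125 to 118 bases before the start, and in 1.85% of all windows. The AP-1 letters TGANTCA were in 1 SPRED2 window that is not printed, and in 7.71% of all. The octamer TGAATGAA of the repressor CIC was in none of the members' windows (1.65% of all), nor were the core of the interferon-stimulated response element, GAAA, 2 free bases and GAAA (3.57% of all), or the ETS-IRF composite, GGAA, 2 free bases and GAAA (2.82%). A match is a description of letters, and the absence of one says only that those letters are not in this window.

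The 4 lines started from different levels of these genes. With the EV guide, all 10 members differed between lines by the F test, as did 93.1% of all genes tested. Pairwise, 8 of 10 differed between H929 and MM1S (all genes, 63.1%), 9 between H929 and OPM2 (65.4%), 9 between H929 and RPMI-8226 (75.1%), 8 between MM1S and OPM2 (61.4%), 7 between MM1S and RPMI-8226 (67.7%), and 7 between OPM2 and RPMI-8226 (72.9%). The last 2 counts are near the share of all genes and the others above it, which was not tested further. On the deposited log2 RPKM values, which account for gene length, DUSP5 in H929 was the highest member (mean 8.11), DUSP4 the highest in OPM2 (5.94), and SPRY2 in RPMI-8226 the lowest of all (-5.07). That SPRY2 mean rests on 6, 3 and 0 counts, where the library at 0 counts has a deposited value of -6.639. DUSP5 was also the highest member in MM1S (6.51) and RPMI-8226 (6.72).

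DUSP6 with the EV guide was ordered H929 (244 ± 18.6 CPM), MM1S (134 ± 8.77), OPM2 (38.6 ± 6.40) and RPMI-8226 (35.4 ± 0.790), with no call between the last 2 (adjusted p = 0.456). DUSP5 was ordered H929 (788 ± 60.5), RPMI-8226 (277 ± 33.4), MM1S (229 ± 2.74) and OPM2 (65.4 ± 19.8), where RPMI-8226 and MM1S could not be separated (adjusted p = 0.250). For DUSP4 the order was OPM2 (591 ± 122), H929 (233 ± 18.8), MM1S (179 ± 9.56) and RPMI-8226 (111 ± 10.4). Its step from H929 to MM1S (adjusted p = 0.0443) ended in 10 of the 23 fits with 1 library left out. DUSP2 was high in OPM2 (38.5 ± 2.91) and RPMI-8226 (37.8 ± 3.70; adjusted p = 0.914 between them), then H929 (18.6 ± 2.72) and MM1S (12.5 ± 1.76). DUSP2 stood lowest in the 2 lines with the most DUSP6.

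DUSP10 was at 13.96 ± 0.405 CPM in H929 and 13.5 ± 0.493 in MM1S, with no call between them (adjusted p = 0.814), then 6.43 ± 1.19 in RPMI-8226 and 1.81 ± 0.0901 in OPM2. DUSP1 was highest in H929 (20.8 ± 2.69), and MM1S (14.4 ± 3.30), OPM2 (13.1 ± 2.68) and RPMI-8226 (12.6 ± 0.0437) were not told apart from each other, nor MM1S from H929 (adjusted p = 0.0657). SPRY1 split the lines, with 51.1 ± 8.69 CPM in MM1S and 42.8 ± 4.23 in OPM2 against 1.75 ± 0.547 in H929 and 1.62 ± 0.350 in RPMI-8226 (33.03-fold between MM1S and RPMI-8226, adjusted p = 8.01e-21). SPRY2 ran from OPM2 (5.48 ± 0.387) through H929 (2.07 ± 0.159) and MM1S (0.757 ± 0.350) to RPMI-8226 (0.121 ± 0.123), each neighbour differing. SPRED1 was highest in MM1S (85.6 ± 2.23), followed by RPMI-8226 (54.7 ± 3.51), OPM2 (41.2 ± 3.74) and H929 (40.8 ± 3.13), with no call between the last 2 (adjusted p = 1). SPRED2 was ordered MM1S (69.6 ± 3.77), RPMI-8226 (60.99 ± 0.867; adjusted p = 0.115 against MM1S), OPM2 (35.5 ± 1.27) and H929 (26.1 ± 0.951). Single libraries decided some of these steps. Without MM1S EV replicate 2 the SPRY2 difference between H929 and MM1S was 1.03, adjusted p = 0.165. Without MM1S EV replicate 3 the SPRY2 difference between MM1S and RPMI-8226 was 1.74, adjusted p = 0.156, and the DUSP2 difference between H929 and MM1S was 0.45, adjusted p = 0.0735. Without OPM2 EV replicate 3 the DUSP1 difference between H929 and OPM2 was 0.52, adjusted p = 0.0506, and without H929 EV replicate 1 the F test for DUSP1 gave an adjusted p of 0.0559. The DUSP1 difference between H929 and MM1S became called without H929 EV replicate 2, MM1S EV replicate 2, MM1S IRF4 replicate 3, OPM2 EV replicate 3 or OPM2 IRF4 replicate 3 (adjusted p = 0.0464, 0.0469, 0.0403, 0.0486 and 0.0280). It was also called by DESeq2 (0.54, adjusted p = 0.0394), by limma on log2 RPKM (0.58, adjusted p = 0.0474) and without the low-count filter (0.59, adjusted p = 0.000862). That filter also decided DUSP5 between MM1S and RPMI-8226 (-0.25, adjusted p = 0.0219 without it). On log2 RPKM the H929 to MM1S steps of DUSP4 (0.32, adjusted p = 0.0839) and SPRY2 (1.28, adjusted p = 0.0633) were not called.

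**Figure D3:**
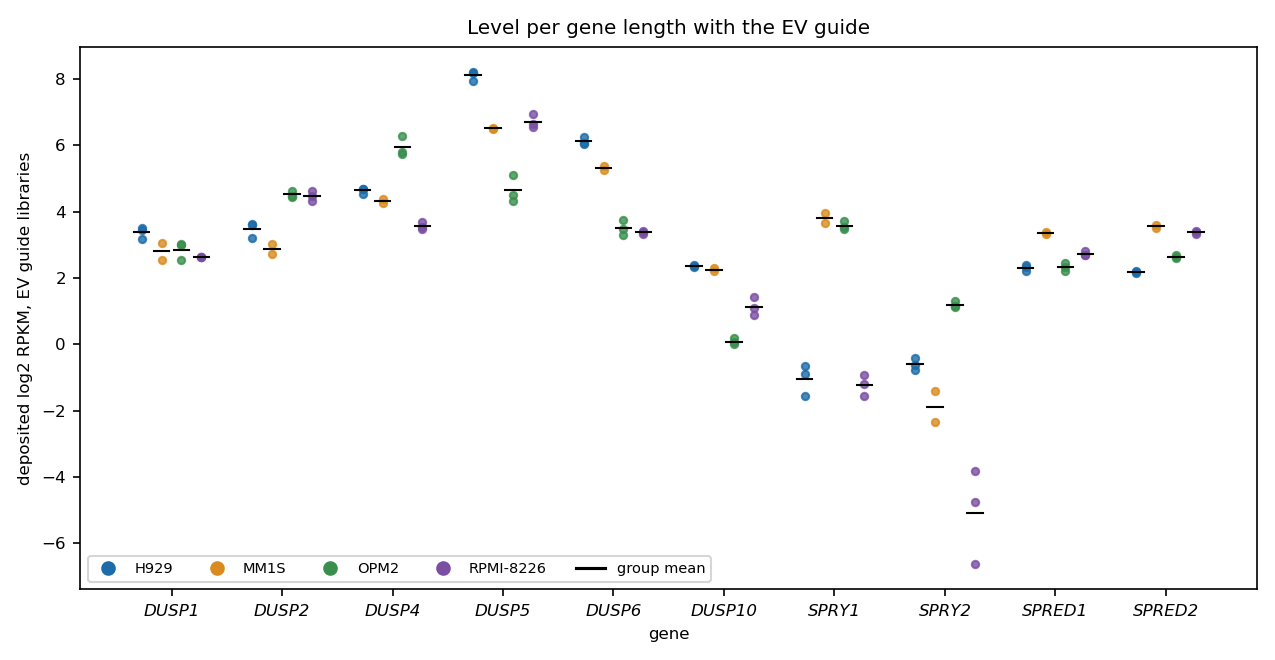
Deposited log2 RPKM of each ERK feedback gene in the EV libraries, with 1 colour per line, 1 point per library and a bar at the group mean. DUSP5 in H929 stands highest (8.11), and SPRY2 in RPMI-8226 lowest (-5.07) with the widest spread. Those SPRY2 libraries held 6, 3 and 0 counts, and the deposited value at 0 counts is -6.639.

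FGFR3, the receptor gene with an activating mutation in OPM2, was at 2212 ± 227 CPM in OPM2, 152 ± 22.7 in H929, 2.51 ± 1.06 in RPMI-8226 and 1.12 ± 0.147 in MM1S with the EV guide. In H929 the libraries had 147, 133 and 177 CPM with the EV guide and 431, 354 and 327 CPM with the IRF4 guide, and FGFR3 rose by 1.28 ± 0.14 (adjusted p = 4.54e-08). OPM2 had 1951, 2359.5 and 2327 CPM with the EV guide and 1183, 1628 and 1432 CPM with the IRF4 guide, no overlap, and FGFR3 fell by 0.65 ± 0.13 on the log2 scale (adjusted p = 0.000443). In the 2 lines of high FGFR3, receptor and DUSP6 RNA both rose in H929, while in OPM2 the receptor fell and DUSP6 was not called. DUSP6 also rose in MM1S and RPMI-8226, the lines of low FGFR3. With the EV guide, OPM2 had more FGFR3 RNA than H929 and less DUSP6 RNA. In RPMI-8226 FGFR3 rose by 0.99 ± 0.25 (adjusted p = 0.00369) from a low level, and in MM1S the value was -1.56 ± 0.67 (adjusted p = 0.0804). The effects differed between lines (adjusted p = 1.91e-07), and the part of FGFR3 in the levels of the feedback genes was not tested.

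Across the 8 group means of log2 CPM, DUSP6 and DUSP10 had Pearson r = 0.87, DUSP5 and DUSP10 0.85, and DUSP5 and DUSP6 0.84, while DUSP2 ran against DUSP6 (-0.93) and DUSP10 (-0.88). SPRED1 and SPRED2 had r = 0.69 and SPRY1 and SPRY2 0.21. These are descriptions over 8 points that come in pairs from 4 lines. Among 14768 genes with a group mean of at least 1 CPM, those most like DUSP6 were SLC46A3 (r = 0.987), SIRT6 (r = 0.983) and ZMYND12 (r = 0.980), and most like DUSP10 APOBR (r = 0.981), SERPINB8 (r = 0.981) and PDLIM2 (r = 0.972). For DUSP2 they were TWF1 (r = 0.984), MORF4L2 (r = 0.976) and SMARCA4 (r = 0.974), for DUSP5 BCAS4 (r = 0.984), TMEM101 (r = 0.981) and EIF3H (r = 0.980), and for DUSP1 ZBTB4 (r = 0.985), SYNE1 (r = 0.983) and CALHM3 (r = 0.980). SPRY1 was nearest to FAM171A1 (r = 0.986), MYOM2 (r = 0.985) and CCDC91 (r = 0.983), SPRY2 to ZKSCAN2 (r = 0.966), PPP4R4 (r = 0.948) and NIPBL-DT (r = 0.940), and SPRED1 to RETSAT (r = 0.981), TRIM44 (r = 0.981) and COMMD6 (r = 0.978). No member was among the 3 nearest genes of another.

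Other genes of the pathway were counted by list, and the lists were chosen with earlier results of these data known. Over all genes tested, 32.9% were called higher and 26.1% lower in H929, and 19.4% and 15.2% in MM1S. The shares were 23.3% and 20.2% in OPM2 and 19.2% and 14.7% in RPMI-8226. Some counts of the lists here and in the next paragraphs lie near these shares, and no list was tested against them. Of 8 tested relatives (other dual-specificity phosphatases, SPRY4 and SPRED3), 3 rose and 2 fell in H929, 0 and 3 in MM1S, 2 and 1 in OPM2, and 1 and 2 in RPMI-8226, with medians of 0.28, -0.39, 0.18 and -0.04. DUSP7, the closest relative of DUSP6 and also an ERK phosphatase, fell in all 4 lines, with log2 differences of -0.81 ± 0.12, -0.66 ± 0.14, -0.82 ± 0.12 and -0.42 ± 0.12 in H929, MM1S, OPM2 and RPMI-8226, the direction opposite to DUSP6 in 3 of them. DUSP16, a JNK phosphatase, rose in H929, OPM2 and RPMI-8226 (0.38 ± 0.11, 0.37 ± 0.09 and 0.27 ± 0.10) and fell in MM1S (-0.55 ± 0.11). DUSP14 (-0.26 ± 0.06) and DUSP3 (-0.19 ± 0.05) were lower on the average of the lines.

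Of 18 transcripts that ERK induces, 8 rose and 6 fell in H929, 3 and 3 in MM1S, 7 and 1 in OPM2, and 3 and 4 in RPMI-8226, with medians of 0.58, 0.15, 0.45 and 0.16 beside the medians of all genes given above. PHLDA1, an early growth factor response gene, rose in all 4 lines (1.16 ± 0.23, 0.85 ± 0.26, 2.95 ± 0.29 and 1.15 ± 0.27 in the order above). IER5, an immediate early gene, rose in H929, MM1S and RPMI-8226 (0.90 ± 0.12, 1.18 ± 0.14 and 0.58 ± 0.12) and had -0.10 ± 0.12 (adjusted p = 0.527) in OPM2. DUSP6 was called higher in the same 3 lines. IER2, another immediate early gene, rose in H929, MM1S and OPM2 (0.79 ± 0.08, 0.55 ± 0.19 and 1.07 ± 0.08). ETV4, an ETS factor induced by FGF and ERK signalling, fell in H929, OPM2 and RPMI-8226 (-0.997 ± 0.14, -1.38 ± 0.26 and -0.60 ± 0.13). The list thus held members moving both ways in each of the 4 lines.

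Among 22 genes from RAS to ERK, 8 rose and 4 fell in H929, 7 and 3 in MM1S, 5 and 3 in OPM2, and 4 and 5 in RPMI-8226, with medians of 0.06, 0.09, 0.10 and 0.01. MAPK3, which encodes ERK1, rose in all 4 lines (0.75 ± 0.08, 0.59 ± 0.09, 0.46 ± 0.08 and 0.24 ± 0.08), as did the small GTPase gene RRAS (0.93 ± 0.09 on the average) and the RAS exchange factor gene SOS2 (0.74 ± 0.07). RPS6KA1, which encodes the ERK substrate RSK1, rose in H929, MM1S and OPM2 (1.15 ± 0.09, 0.99 ± 0.10 and 0.68 ± 0.10). Of 14 RAS GTPase activators and other brakes, 9 rose and 4 fell in H929, 9 and 1 in MM1S, 5 and 2 in OPM2, and 4 and 1 in RPMI-8226, with medians of 0.77, 0.35, 0.15 and 0.10. CIC, a repressor that ERK inactivates, rose in all 4 lines (1.26 ± 0.10, 0.32 ± 0.11, 0.76 ± 0.10 and 0.56 ± 0.10), and the RAS GTPase activators RASAL3 and RASA1 had 0.87 ± 0.05 and 0.92 ± 0.08 on the average. PEBP1, another gene of that list, fell in H929 and OPM2 (-0.76 ± 0.07 and -0.45 ± 0.07).

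Of 10 FGF receptor and adaptor genes, 3 rose and 3 fell in H929, 1 and 2 in MM1S, 2 and 2 in OPM2, and 2 and 3 in RPMI-8226, with medians of 0.19, -0.35, 0.15 and -0.07. PLCG2, a phospholipase of B-cell receptor signalling, rose in H929, MM1S and OPM2 (1.66 ± 0.09, 0.71 ± 0.12 and 0.89 ± 0.12), while PLCG1 (-0.19 ± 0.05), FGFR4 (-0.77 ± 0.24) and the ubiquitin ligase gene CBL (0.16 ± 0.06) had these averages. In the p38 and JNK arm, on which DUSP1 and DUSP10 act, 6 of 13 rose and 3 fell in H929, 5 and 1 in MM1S, 5 and 2 in OPM2, and 4 and 1 in RPMI-8226, with medians of 0.18, 0.17, 0.11 and 0.08. MAPK11, which encodes p38 beta, rose in all 4 lines (2.77 ± 0.22, 0.81 ± 0.19, 1.11 ± 0.17 and 0.82 ± 0.14). The p38 activators MAP2K3 (0.36 ± 0.04) and MAP3K5 (0.32 ± 0.04) were higher on the average and MAPK9, which encodes JNK2, lower (-0.34 ± 0.05). Of 10 ETS and ternary complex factors, 6 rose and 0 fell in H929, 0 and 1 in MM1S, 5 and 1 in OPM2, and 2 and 0 in RPMI-8226, with medians of 0.34, 0.07, 0.15 and 0.04. ETS1 had 2.24 ± 0.17 in H929 and 0.80 ± 0.16 in OPM2, ELF1 1.01 ± 0.08 in H929, ETV6 0.63 ± 0.09 in OPM2 and ETS2 1.64 ± 0.12 in OPM2, each a called rise.

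**Figure D4:**
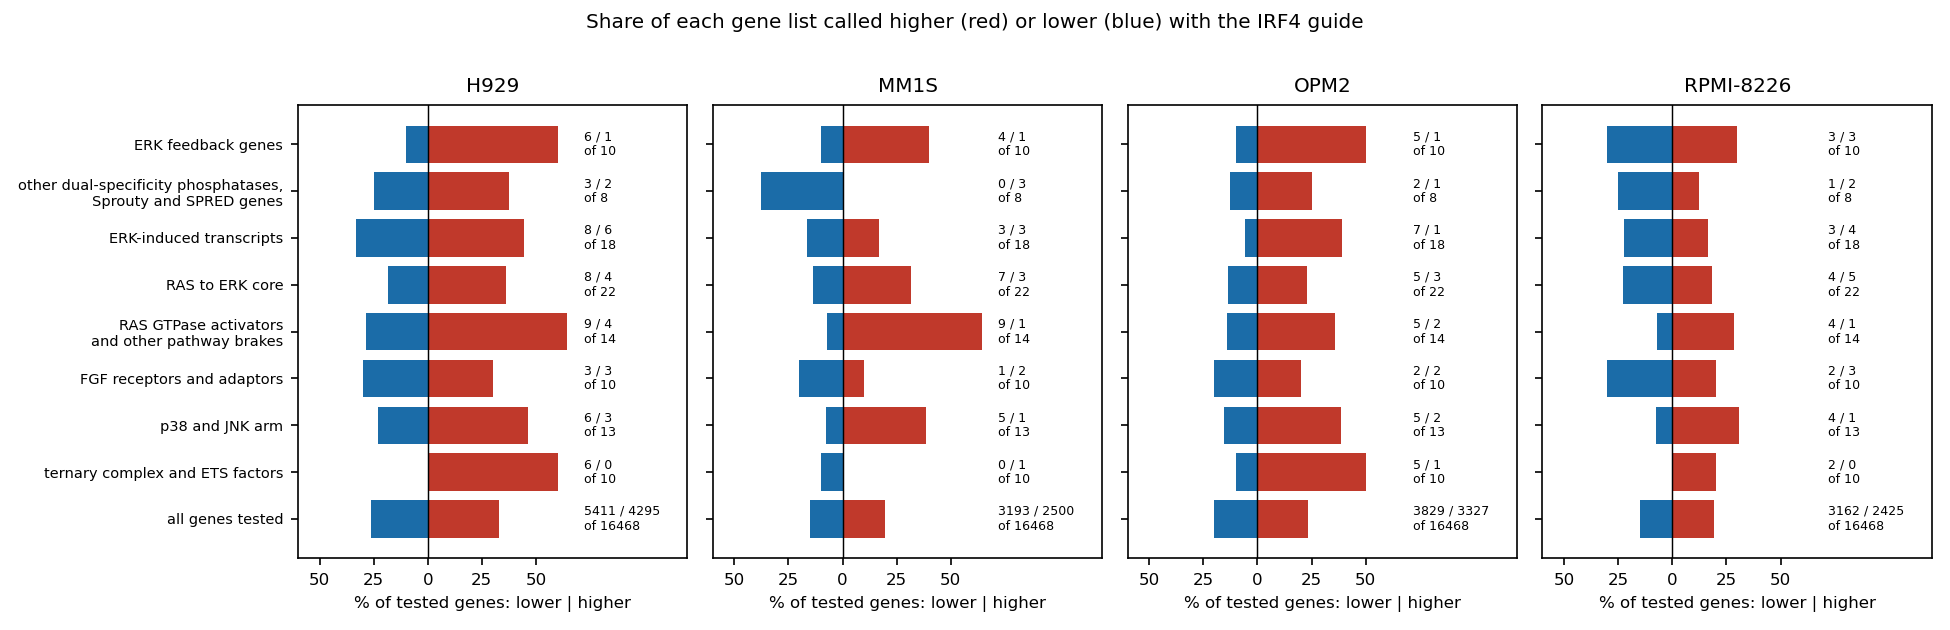
Share of the tested genes of each list called lower (blue, to the left) or higher (red, to the right) with the IRF4 guide, per line, with the counts higher / lower and the list size at the right and all genes tested in the last row. The ERK feedback genes have 6, 4, 5 and 3 of 10 higher in H929, MM1S, OPM2 and RPMI-8226.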

How the data were processed

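RNA was sequenced from 23 libraries of 4 myeloma lines. The authors deposited raw read counts per gene in one table, and log2 RPKM values for each library (16220 genes). RPKM by its name is reads scaled to gene length and library total. Subread, featureCounts and limma on GRCh38 (hg38) are named in the submitters' processing notes, without versions or roles. The deposited log2 values were not scaled by gene length and library total alone. IRF4 had the same value, 8.07786, in OPM2 IRF4 replicate 2 (1331 CPM) and OPM2 EV replicate 1 (1569.7 CPM). FGFR3 had 9.07368 in OPM2 EV replicates 2 and 3 (2359.5 and 2327 CPM). What further normalisation was applied is not stated in the sources used here. Use of strand in counting is not stated either, so reads of overlapping or antisense genes cannot be told apart. Whether reads of close paralogs were told apart is not known from the sources used here.

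Counts were tested in R 4.3.3 with edgeR 4.0.16: filterByExpr by group, TMM factors, and 1 robust quasi-likelihood fit with a mean for each of the 8 groups. The contrasts were IRF4 guide minus EV guide per line, their equally weighted average, an F test of the difference between lines, and EV levels between lines. Benjamini-Hochberg adjustment ran over all 16468 genes tested, with a threshold of 0.05. The SE is the size of a change divided by the square root of F. The fit was tested on simulated data. The members and the gene lists were chosen with earlier results of these data known. All 10 members, IRF4 and FGFR3 are named, with up to 4 called genes per list by smallest adjusted p on the average, and the 3 genes nearest by Pearson r to each member called in at least 2 lines.

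Alternatives were DESeq2 1.42.0, DESeq2 size factors, no low-count filter, limma 3.58.1 on the deposited log2 RPKM (no pseudocount added to the deposited values), each line fitted alone, 2 forms of replicate block, and each library left out in turn. The labels do not say what a replicate number shares. Deviations of same-numbered libraries of the 2 guides correlated over 0.1 in all 3 pairs of OPM2 (r = 0.183, 0.144 and 0.175), so there the numbers were taken to pair libraries, from the data, and in not all pairs of each other line, where they were not. That cut left out H929 and RPMI-8226, although there and in OPM2 18 of 18 libraries correlated best with their own number. In every line, OPM2 included, the counts, SE and adjusted p are from the fit without a block unless another setting is named. Gene coordinates and promoter windows are RefSeq's (GRCh38.p14).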

Additional observations from a re-analysis of the deposited data

Results flagged for a closer look

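The effect of the IRF4 guide differed between the 4 lines for 7 of the 10 ERK feedback genes, by an edgeR F test of the difference. Of all genes tested, 48% received that call. The adjusted p was 2.39e-08 for DUSP10, 3.53e-06 for DUSP6, 0.000128 for SPRY1, 0.000157 for DUSP2, 0.000774 for SPRY2, 0.00751 for SPRED1 and 0.0119 for DUSP5. SPRY1 was the one of the 7 with called changes in opposite directions (0.81 ± 0.21 in H929, -1.21 ± 0.27 in RPMI-8226). IRF4 itself also differed between lines (adjusted p = 0.0317), from -1.58 ± 0.18 in H929 to -0.66 ± 0.18 in OPM2, so the lines were not matched in how far the target fell. FGFR3 differed as well (adjusted p = 1.91e-07), higher in H929 and RPMI-8226 and lower in OPM2. No test for single outlying libraries was made, because 7 of the groups had 3 libraries and 1 had 2.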

How the results depend on the processing

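Over the alternative settings, 28 to 30 for each value, 102 of 130 values of the members kept both direction and side of the threshold, 28 crossed the threshold in at least 1, and no called value changed sign. The count of members called moved by over 1.5 times in 2 cases: from 5 to 3 in MM1S without EV replicate 2, and from 6 to 3 in OPM2 with limma on log2 RPKM. In OPM2, 7156 of 16468 genes were called on counts and 6181 of 16220 with limma on log2 RPKM. With each library left out in turn, the count ran from 6 to 7 in H929, 3 to 6 in MM1S, 4 to 6 in OPM2 and 4 to 6 in RPMI-8226; it was 8 on the average and 7 for the difference between lines in every such fit. EV levels gave 9 to 10 for the F test, 6 to 9 for H929 against MM1S, 8 to 9 for H929 against OPM2, 9 for H929 against RPMI-8226, 8 for MM1S against OPM2, 6 to 7 for MM1S against RPMI-8226 and 7 for OPM2 against RPMI-8226.

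Same-numbered libraries of the 2 guides had correlated deviations of r = 0.0256 to 0.183 over 11 pairs, 6 of them over 0.1, among them all 3 of OPM2; in the 3 lines with 3 pairs each, 18 of 18 libraries correlated best with their own number, a hint from the data and not from the design. With a replicate block shared by the lines, 7 members were called in H929, 6 in MM1S, 6 in OPM2, 7 in RPMI-8226, 8 on the average, 7 for the difference and 10 for EV levels. With a replicate block within each line these were 9, 5, 7, 8, 8 and 8, in the same order without EV levels. Calls over all 16468 genes also went up under the within-line block, from 9706 to 10339 in H929, 5693 to 6060 in MM1S, 7156 to 8091 in OPM2, 5587 to 6837 in RPMI-8226 and 9505 to 9681 on the average. Besides DUSP4 in OPM2, the members it called in addition were DUSP4 in H929 (-0.18, adjusted p = 0.0161) and for the difference between lines (adjusted p = 0.0185), DUSP5 in H929 (0.28, adjusted p = 0.000113) and, lower, in RPMI-8226 (-0.21, adjusted p = 0.00563), and DUSP1 in RPMI-8226 (0.46, adjusted p = 0.00135). Under the shared block DUSP1 was called in MM1S (0.50, adjusted p = 0.0194) and RPMI-8226 (0.46, adjusted p = 0.00579) and between H929 and MM1S with the EV guide (0.51, adjusted p = 0.00813), and DUSP4 was not called in the latter (0.36, adjusted p = 0.0663). These blocks changed no other call of a member. The depth limits SPRY2 in MM1S and RPMI-8226, at 0 to 69 counts per library.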

Other observations

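In H929, where DUSP6 rose, 8 of 18 transcripts that ERK induces rose and 6 fell (all genes, 32.9% and 26.1%). Those that rose were EGR2, IER2, IER5, PHLDA1, EPHA2, EPHA4, MAFF and KLF10. Among them, by edgeR, KLF10 had 1.10 ± 0.09 (adjusted p = 1.27e-11) and EPHA4 1.77 ± 0.21 (adjusted p = 2.44e-08). Those that fell were EGR1, FOSL1, IER3, ETV4, ETV5 and CCND1. The genes given with values here were chosen after their values were seen. EGR1, an immediate early transcription factor, fell in H929 (33.3 ± 8.07 CPM with EV and 7.73 ± 2.88 CPM with the IRF4 guide; log2 difference -2.06 ± 0.20, adjusted p = 5.25e-10 by edgeR), and was under 1 CPM in both groups of the other lines. ETV5, an ETS factor induced with DUSP6 by FGF signalling, fell in H929 (69.9 ± 5.65 CPM with EV and 37.995 ± 9.86 CPM with the IRF4 guide; -0.86 ± 0.19, adjusted p = 0.000700) and was called in no other line. CCND1, which encodes cyclin D1, fell in H929 (-1.68 ± 0.10, adjusted p = 3.76e-15), MM1S (-1.22 ± 0.38, adjusted p = 0.0194) and RPMI-8226 (-0.80 ± 0.09, adjusted p = 1.28e-07). SPRY4, a Sprouty gene outside the 10, was called in no line, at 12.7 ± 2.38 CPM with EV and 15.5 ± 0.788 CPM with the IRF4 guide in H929. NRAS, a RAS gene, fell in H929 (-0.38 ± 0.08, adjusted p = 0.000186), MM1S and OPM2. The part of these genes in the levels of the ERK feedback genes was not tested.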
